A study of Mus musculus with 8 samples.

Results

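Haematopoietic stem cells that had lost the polarity scaffold Scribble were set directly against stem cells that had lost Yap1 and Taz, with no wild-type library needed for the contrast. The comparison covers 4 of the 8 libraries of the series, 2 labelled Scribble null (genotype Scribble-/-) and 2 labelled Yap1 Taz null (genotype Taz-/-;Yap1-/-). Messenger RNA was measured by sequencing of sorted bone marrow stem cells and deposited as TPM (length-normalised transcript abundance), whose values have the same sum in every library. Genes entered when they reached 1 TPM in at least 2 of the 4 libraries, lay on an autosome and had a symbol other than a -ps pseudogene or a Gm gene model. This left 12557 of the 33641 symbols in the files, of which 12438 are annotated as protein coding. All mice were C57BL/6 and all groups, wild type included, carried Mx1-Cre, a recombinase driven by an interferon-responsive promoter. Each had been given 6 intraperitoneal injections of polyI:C, synthetic double-stranded RNA that triggers interferon release, with 10 mg/kg on alternate days. Marrow was harvested 1 week after induction. The remaining libraries, 2 of wild type and 2 of a triple null for all the targeted genes (Scribble-/-;Taz-/-;Yap1-/-), entered this contrast only through the estimate of the spread. They are given beside the results as reference levels, and each compared genotype was also tested against wild type in the same fit.

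Scribble is a scaffold protein of the basolateral polarity complex, which positions membrane and cytoskeletal proteins to one side of a cell and also serves as a platform for kinases of the Hippo pathway. Those kinases phosphorylate the co-activators YAP and TAZ, encoded by Yap1 and Wwtr1, and keep them in the cytoplasm. When not restrained, YAP and TAZ enter the nucleus and bind TEAD transcription factors at growth and adhesion genes. In long-lived blood stem cells, polarity of Cdc42 and the cytoskeleton has been tied to quiescence and to the way the cells divide.

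Across the compared genes, log2 values correlated at r = 0.961 between the Scribble null libraries and at 0.964 between the Yap1 Taz null libraries. The second Scribble null library correlated as closely with the second Yap1 Taz null library, at 0.962, and more closely with both triple null libraries, at 0.966 and 0.967. Sequencing depth cannot be read from TPM and is unknown here. The labels do not state that libraries of 1 genotype came from separate animals, so p-values measure only library-to-library spread, possibly technical in origin. An exact permutation test of 2 against 2 cannot go below p = 0.333, and the tests given here therefore come from limma, a linear model that shares its variance estimate across genes. In the triple null libraries the summed B lineage and plasma cell markers stood at 515 and 979 TPM, against 31.9 to 54.9 TPM in the other 6.

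The targeted genes did not separate the groups at the level of the whole gene. Scrib (GRCm38 chromosome 15, 76047158 to 76069784) was 6.25 and 7.63 TPM in Scribble null and 7.98 and 7.32 TPM in Yap1 Taz null libraries. The values overlapped, with a log2 difference (Scribble null minus Yap1 Taz null, as throughout) of −0.13 and an adjusted p of 0.929. Yap1 was 5.83 and 2.45 TPM in Scribble null and 2.13 and 6.63 TPM in Yap1 Taz null libraries, again overlapping, with an adjusted p of 0.997. Wwtr1 was 5.32 and 3.91 TPM in Scribble null and 1.09 and 1.15 TPM in Yap1 Taz null libraries. Its groups did not overlap and its log2 difference was 1.39, but its adjusted p was 0.207, and wild type lay at 0.73 and 1.19 TPM. The symbol Taz in the files denotes tafazzin, an X-linked mitochondrial enzyme that was not targeted. Loss of a few exons would not show in a whole-gene level, so these values check no label, and every direction below refers to libraries by their label.

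The groups also differed in Y-linked transcripts, which the choice of autosomal genes sets aside. Eif2s3y, a Y-linked translation initiation factor, was 56.5 and 64.1 TPM in Scribble null and 4.16 and 4.63 TPM in Yap1 Taz null libraries, with wild type at 45.8 and 56.1 TPM and the triple null at 62.1 and 61.0 TPM. Both Yap1 Taz null libraries were below all others. Kdm5d and Ddx3y had the same order of groups, at 42.8 and 38.6 against 5.25 and 7.31 TPM and at 27.1 and 26.3 against 2.48 and 2.05 TPM. The labels used here give no sex, so a difference in sex between the mice and the difference in genotype cannot be told apart for any gene below.

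Of the 12557 genes, 31 (0.247%) were called at an adjusted p under 0.05, 11 (0.0876%) higher in Scribble null and 20 (0.159%) higher in Yap1 Taz null libraries. Without an adjustment 1344 genes (10.7%) had a p under 0.05, and the groups of 2 did not overlap for 4986 genes (39.7%), 2470 (19.7%) with both Scribble null libraries higher and 2516 (20%) with both Yap1 Taz null libraries higher. The shares of 19.7% and 20% are the reference for all list counts below. A gene that reached 1 TPM only in the 2 libraries of 1 group cannot overlap, by the filter itself. Plekhg1, Nlrp1b, Masp2 and Thbs1 below are such genes. The median difference of all compared genes was −0.00393 on the log2(TPM + 1) scale, and the 5th and 95th percentiles were −0.73 and 0.68. Among the called genes, 22 had no near-identical copy among the annotated transcripts searched, 8 of them higher in Scribble null and 14 higher in Yap1 Taz null. They include the repressors Gfi1 and Gfi1b in opposite directions, the interferon and innate immune genes Ifi44l, Cxcl9 and Ifitm1, the kallikrein Klk1b22 and the stress cytokine Gdf15. The count of 31 fell to 11 without the first Scribble null library, to 10 and 12 without the first and second Yap1 Taz null library, to 16 without either wild-type library, and to 20 and 19 without the first and second triple null library. With the spread taken from the 4 compared libraries alone it was 5, with no filter on low values 14, and with p-values adjusted over the 12557 genes alone 17.

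**Figure D1:**
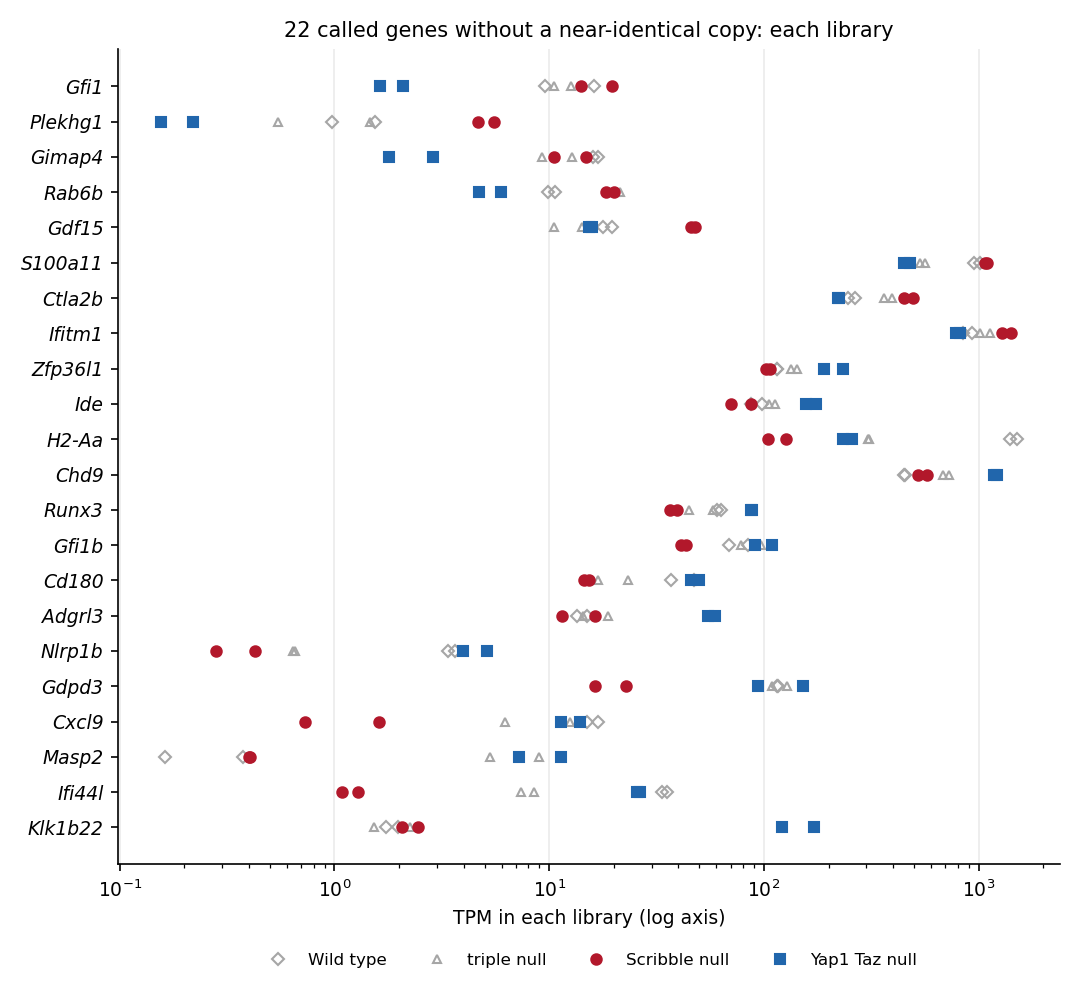
TPM of the 22 called genes without a near-identical copy in each library, on a log axis, ordered by the difference between Scribble null (red circles) and Yap1 Taz null (blue squares), with wild type (open diamonds) and triple null (open triangles) in grey. The red and blue symbols do not overlap for any of the 22 genes, and Klk1b22 has its Yap1 Taz null libraries at 122 and 172 TPM and all other libraries at or under 2.46 TPM.

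Among the called genes higher in Scribble null that have no near-identical copy, Gfi1 had the largest difference. Gfi1 (chromosome 5, 107716657 to 107726036) encodes a zinc finger repressor that restrains the cycling of blood stem cells and directs myeloid and lymphoid differentiation. It was 19.6 and 14.0 TPM in Scribble null and 1.63 and 2.09 TPM in Yap1 Taz null libraries, with wild type at 16.2 and 9.52 TPM and the triple null at 12.6 and 10.6 TPM. Both Yap1 Taz null libraries were therefore far below all others, and Scribble null was near wild type. The log2 difference was 2.62 (SE 0.33) with an adjusted p of 0.0215, and the gene was called under 12 of 19 alternative settings.

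Its paralogue Gfi1b, a repressor required in erythroid and megakaryocytic cells, differed in the opposite direction. Gfi1b was 40.9 and 43.6 TPM in Scribble null and 109 and 91.0 TPM in Yap1 Taz null libraries. Wild type, at 69.0 and 84.3 TPM, lay between them. The log2 difference was −1.22 (SE 0.18) with an adjusted p of 0.0415, and the call held under 5 of 19 alternatives, with adjusted p-values from 0.0293 to 0.473. Runx3, a Runt family factor active in lymphoid and stem cells, showed the same order, at 36.3 and 39.4 TPM in Scribble null and 87.9 and 86.8 TPM in Yap1 Taz null libraries, with wild type between them at 63.1 and 60.6 TPM. Its log2 difference was −1.19 (SE 0.17), its adjusted p was 0.0364, and 7 of 19 alternatives called it.

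Because YAP and TAZ act through TEAD factors, the RefSeq promoter windows of the called genes (GRCm38.p6) were searched for the core TEAD letters GGAATG on either strand. A match was present in 4 of the 25 called genes with a window (16%) and in 1405 of 9732 compared genes with a window (14.4%), and in 14.7% of all 32851 windows. The windows of Gfi1 and Gimap4 are shown because these genes had the lowest Yap1 Taz null levels relative to Scribble null among those with a match, and capitals mark the match, which reads as the reverse complement in Gimap4. The other genes with a match were Gdf15, also higher in Scribble null, and Nlrp1b, higher in Yap1 Taz null. The windows shown were thus chosen by direction. The Gfi1 window belongs to 1 of its 2 annotated starts, and the other start had no match. A match of these letters is a description and not a binding site.
Gfi1, minus strand, chr5:107724294-107724593: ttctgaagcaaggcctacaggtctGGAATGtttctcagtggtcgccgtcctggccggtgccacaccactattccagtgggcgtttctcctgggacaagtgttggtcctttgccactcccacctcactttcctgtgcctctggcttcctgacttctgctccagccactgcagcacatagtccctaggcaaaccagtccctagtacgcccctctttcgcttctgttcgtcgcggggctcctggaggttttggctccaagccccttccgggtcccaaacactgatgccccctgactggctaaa
Gimap4, plus strand, chr6:48684328-48684627: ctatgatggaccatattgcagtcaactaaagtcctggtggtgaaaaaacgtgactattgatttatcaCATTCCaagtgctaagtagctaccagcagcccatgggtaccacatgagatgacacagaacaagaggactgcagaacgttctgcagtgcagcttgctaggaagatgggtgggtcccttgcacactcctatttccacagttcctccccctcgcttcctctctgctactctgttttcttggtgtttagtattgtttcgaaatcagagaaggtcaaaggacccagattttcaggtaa

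Gimap4, a GTPase of immunity-associated proteins that acts in lymphocyte survival, was 14.8 and 10.5 TPM in Scribble null and 1.79 and 2.87 TPM in Yap1 Taz null libraries. Wild type, at 16.9 and 15.9 TPM, and the triple null, at 9.27 and 12.8 TPM, were closer to Scribble null. The log2 difference was 2.04 (SE 0.31) with an adjusted p of 0.0474, and 4 of 19 alternatives called the gene, with adjusted p-values from 0.0324 to 0.297. S100a11, a calcium-binding protein of the S100 family, stood at 1094 and 1064 TPM in Scribble null, 948 and 1012 TPM in wild type, 447 and 479 TPM in Yap1 Taz null and 531 and 560.4 TPM in triple null libraries. The libraries of the genotypes that lack Yap1 and Taz were thus all below the other 4, and the log2 difference between Scribble null and Yap1 Taz null was 1.22 (SE 0.10) with an adjusted p of 0.00175. S100a11 was called under 17 of 19 alternatives. Summed with its 7 less similar relatives (at least 80% identity over at least 50% of the length) the difference was 1.03. S100a11 lies on chromosome 3, 36.0 Mb from the targeted gene Wwtr1. The called genes Mnd1, Rps3a1, Capza1 and Ifi44l lie on the same chromosome, 26.6 to 94.2 Mb from Wwtr1. What part position has was not tested.

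For Gdf15, Ctla2b and Ifitm1 it was the Scribble null libraries that stood apart from wild type. Gdf15, a secreted stress cytokine of the TGF-beta superfamily, was 47.9 and 45.6 TPM in Scribble null and 15.3 and 15.9 TPM in Yap1 Taz null libraries. Wild type was at 19.7 and 17.8 TPM, and the log2 difference was 1.52 (SE 0.21) with an adjusted p of 0.0364. Ctla2b, a relative of cathepsin propeptides, was 495 and 450.7 TPM against 224 and 222 TPM, a log2 difference of 1.08 (SE 0.11) at an adjusted p of 0.00717. Ifitm1, an interferon-induced membrane protein that blocks viral entry, was 1278 and 1416 TPM against 814 and 785 TPM, a log2 difference of 0.75 (SE 0.11) at an adjusted p of 0.0452. None of the 3 genes overlapped between the groups. Gdf15 was called under 6 of 19 alternatives, Ctla2b under 14 and Ifitm1 under 4.

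For Rab6b and Plekhg1 wild type lay between the compared groups. Rab6b, a small GTPase of Golgi traffic, was 20.1 and 18.5 TPM in Scribble null and 4.69 and 5.95 TPM in Yap1 Taz null libraries, with wild type between them at 10.7 and 9.89 TPM. The log2 difference of Rab6b was 1.69 (SE 0.23) with an adjusted p of 0.0331, and it was called under 7 of 19 alternatives. Plekhg1, a guanine nucleotide exchange factor, was 4.69 and 5.54 TPM in Scribble null and 0.219 and 0.156 TPM in Yap1 Taz null libraries, with wild type between them at 1.54 and 0.974 TPM. Its log2 difference was 2.36 (SE 0.35) with an adjusted p of 0.0472, and it was called under 3 of 18 alternatives. Neither gene was called against wild type in either genotype.

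Among the called genes higher in Yap1 Taz null that have no near-identical copy, Klk1b22 differed most. Klk1b22 (chromosome 7, 44112673 to 44116922) encodes a serine protease of the tissue kallikrein family. It was 2.06 and 2.46 TPM in Scribble null and 122 and 172 TPM in Yap1 Taz null libraries, with wild type at 1.74 and 1.97 TPM and the triple null at 2.24 and 1.52 TPM. The high level was thus present in the Yap1 Taz null libraries and absent from the triple null libraries, which also lack Yap1 and Taz. The log2 difference was −5.48 (SE 0.30) with an adjusted p of 0.00011. Summed with its 19 less similar relatives (at least 80% identity over at least 50% of the length) the difference was −5.49, and the gene was called under all 19 alternatives.

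Ifi44l, an interferon-induced gene, was 1.29 and 1.09 TPM in Scribble null and 25.7 and 26.5 TPM in Yap1 Taz null libraries. Wild type was highest, at 35.2 and 33.4 TPM, and the triple null lay at 8.51 and 7.39 TPM. The log2 difference was −3.63 (SE 0.23) with an adjusted p of 0.000305, and all 19 alternatives called it. Gdpd3, a lysophospholipase D family enzyme, was 22.8 and 16.4 TPM in Scribble null and 94.0 and 152 TPM in Yap1 Taz null libraries. Wild type, at 117 and 115 TPM, and the triple null, at 108 and 127 TPM, both lay between the Yap1 Taz null libraries. The log2 difference was −2.57 (SE 0.25) and the adjusted p 0.00446, and 18 of 19 alternatives called it.

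Cxcl9, Nlrp1b and Cd180 were called lower in Scribble null as well. Cxcl9, a chemokine induced by interferon gamma, was 1.61 and 0.731 TPM in Scribble null and 13.9 and 11.3 TPM in Yap1 Taz null libraries, a log2 difference of −2.67 at an adjusted p of 0.0362. Nlrp1b, an inflammasome sensor, was 0.28 and 0.426 TPM against 3.97 and 5.12 TPM, a log2 difference of −2.03 at an adjusted p of 0.0472. Summed with its less similar relative Nlrp1a the difference was −1.52. Cd180, a Toll-like receptor relative of antigen-presenting cells, was 14.5 and 15.3 TPM against 45.6 and 49.8 TPM, a log2 difference of −1.61 at an adjusted p of 0.0331. In these 3 genes wild type was closer to Yap1 Taz null than to Scribble null, and the groups compared did not overlap. Most alternatives ended these calls, which held under 8 of 19 for Cxcl9, 5 of 18 for Nlrp1b and 8 of 19 for Cd180.

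H2-Aa, an MHC class II chain, was 127 and 105 TPM in Scribble null and 234 and 258 TPM in Yap1 Taz null libraries, with both far below wild type at 1402 and 1507 TPM. Its log2 difference was −1.08 (SE 0.13) with an adjusted p of 0.0148, and it was the only called gene without a near-identical copy that was called against wild type in both genotypes. Its partner chain H2-Ab1, at 71.2 and 83.9 against 139 and 159 TPM, had a log2 difference of −0.93 and an adjusted p of 0.0611. That was above 0.05, although the groups did not overlap. H2-Aa was called under 13 of 19 alternatives.

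For Adgrl3, Masp2, Zfp36l1, Ide and Chd9 both Yap1 Taz null libraries lay above all Scribble null and wild-type libraries. Adgrl3, an adhesion G protein-coupled receptor of the latrophilin family, was 11.4 and 16.3 TPM in Scribble null, 55.0 and 58.9 TPM in Yap1 Taz null and 13.5 and 15.01 TPM in wild-type libraries, with a log2 difference of −1.98 (SE 0.24) and an adjusted p of 0.0169. Masp2, a complement protease, was 0.405 and 0.4 TPM against 7.21 and 11.3 TPM, a log2 difference of −2.84 at an adjusted p of 0.0243. Masp2 overlaps Tardbp on the opposite strand, at 332 to 373 TPM in these 4 libraries, and whether the authors counted by strand is not given in the sources used here, so the level of Masp2 is uncertain. Summed with Tardbp the difference was −0.07, but Tardbp makes up nearly all of that sum, which therefore cannot show what Masp2 does. The triple null was at 18.8 and 14.4 TPM for Adgrl3 and at 5.29 and 8.97 TPM for Masp2. Of 19 alternatives 15 called Adgrl3 and 10 called Masp2.

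The genes Zfp36l1, Ide and Chd9 were called but lie outside the rule for naming genes and were chosen after their values were seen. Zfp36l1, an RNA-binding protein that destabilises AU-rich messages, was 106 and 102 TPM in Scribble null and 190 and 233 TPM in Yap1 Taz null libraries, a log2 difference of −1.001 at an adjusted p of 0.0331. Ide, the insulin-degrading enzyme, was 70.0 and 86.8 TPM against 157 and 174 TPM, a log2 difference of −1.08 at an adjusted p of 0.0364. Chd9, a chromatin remodeller, was 575 and 522 TPM against 1181 and 1222 TPM, a log2 difference of −1.13 at an adjusted p of 0.00297. In the authors' other table, of the whole series, Chd9 was listed at 33.7 and 35.5 in Scribble null and 29.5 and 36.7 in Yap1 Taz null libraries, in a unit its header does not name. The groups overlapped there and the log2 difference was 0.07, so the direction of Chd9 depended on the deposited table. Of 19 alternatives 5 called Zfp36l1, 7 called Ide and 16 called Chd9.

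Set beside wild type, the 22 genes without a near-identical copy divided evenly. Against wild type 8 were called in Scribble null alone, 8 in Yap1 Taz null alone, 1 in both and 5 in neither, with 201 of the 15151 tested genes (1.33%) called for Scribble null and 148 (0.977%) for Yap1 Taz null. Both comparisons use the same wild-type libraries. The 22 genes were chosen by the difference between these same null libraries, which favours a departure from wild type in at least 1 genotype. The counts are therefore no test, and the shares of all tested genes are no reference for them. Of the 22 genes, the mean of the triple null libraries was nearer to Scribble null for 13 and nearer to Yap1 Taz null for 9.

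**Figure D2:**
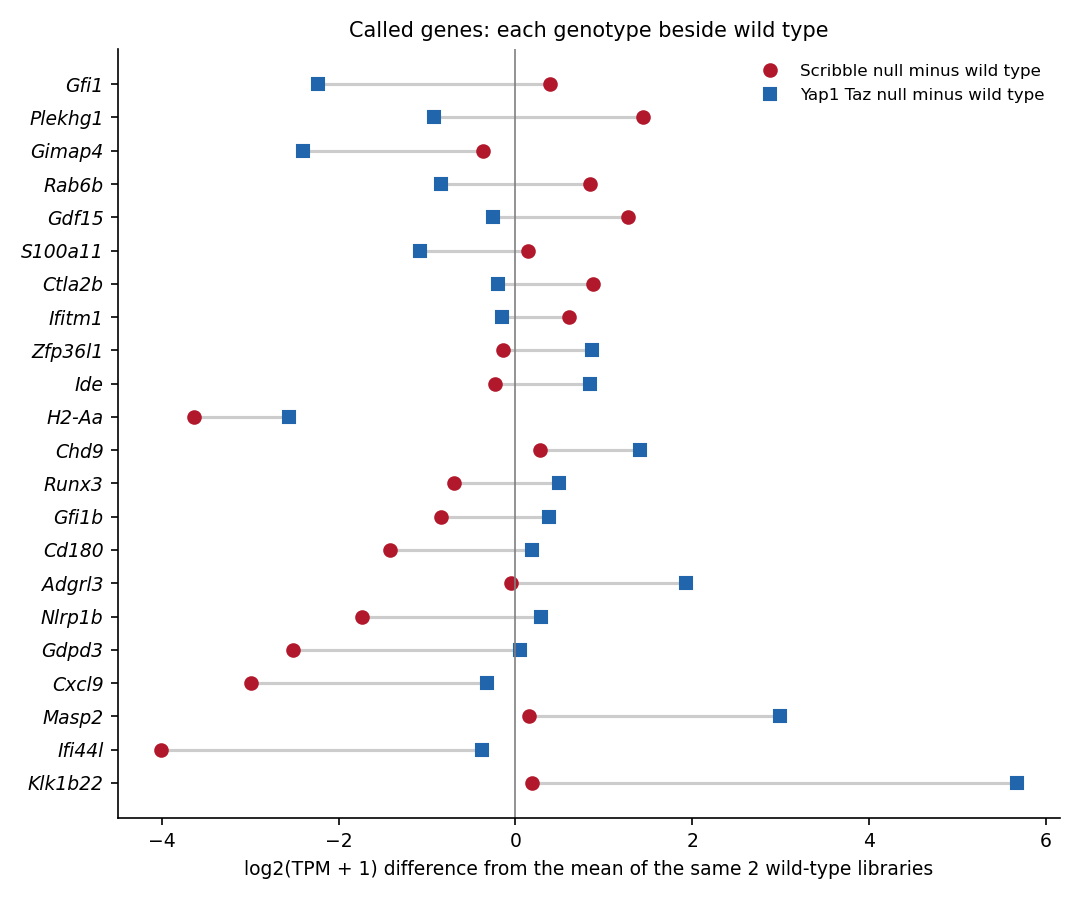
Differences from wild type on the log2(TPM + 1) scale of the 22 called genes without a near-identical copy, for Scribble null (red circles) and Yap1 Taz null (blue squares), each against the same 2 wild-type libraries and with no error bars. Gfi1, Gimap4 and S100a11 have their Yap1 Taz null point away from 0, Ifi44l, Gdpd3 and Cxcl9 their Scribble null point, and H2-Aa both, at −3.64 and −2.56.

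The other 9 called genes have a copy of at least 95% identity over at least 80% of their length. For most of them the difference shrank or changed sign once copies were summed. Rps3a1 is a gene of the 40S ribosome, and Rps3a2 and Rps3a3 are annotated as processed pseudogenes. The latter, like Hist1h2al, BC002163 and Hist1h2bl, lie outside the rule for naming and were chosen after their values were seen. The same 60 bases, positions 201 to 260 of the Rps3a1 coding sequence, are shown for the 3 copies to show how few bases separate them, with capitals at the positions where they differ. Over the aligned length Rps3a2 differs from Rps3a1 at 4 of 792 bases and Rps3a3 at 9 of 795.
Rps3a1: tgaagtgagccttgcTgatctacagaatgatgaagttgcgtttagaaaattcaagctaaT
Rps3a2: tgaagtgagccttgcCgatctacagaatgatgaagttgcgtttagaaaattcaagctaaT
Rps3a3: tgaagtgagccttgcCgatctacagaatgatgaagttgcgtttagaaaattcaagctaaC

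Rps3a1 (chromosome 3, 86137940 to 86142702) was 3813 and 3160 TPM in Scribble null and 266 and 231 TPM in Yap1 Taz null libraries. Rps3a2 was 11.2 and 12.6 TPM against 1429 and 1235 TPM, and Rps3a3 was 39.5 and 40.4 TPM against 816 and 682 TPM. The order of groups was thus opposite in the gene and in its copies, with log2 differences of 3.80, −6.69 and −4.19 and adjusted p-values of 3.58e-06, 3.08e-06 and 2.85e-06. Wild type was close to Scribble null in all 3, and the triple null was close to Yap1 Taz null. Summed over the 6 genes the level was 3885 and 3227 TPM in Scribble null and 2519 and 2156 TPM in Yap1 Taz null libraries, a difference of 0.60. The summed groups did not overlap.

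Capza1, the alpha subunit of the actin capping protein, was 62.3 and 58.6 TPM in Scribble null and 15.8 and 16.9 TPM in Yap1 Taz null libraries, a log2 difference of 1.83 at an adjusted p of 0.00996. Its copy Gm3608 stood the other way, at 1.86 and 2.44 TPM against 42.0 and 50.9 TPM. Summed, the pair were 64.2 and 61.0 TPM against 57.8 and 67.8 TPM, which overlap, with a difference of −0.0003. Eno1b, a copy of the glycolytic enolase Eno1, had a log2 difference of −3.67 alone and 0.12 when summed with Eno1. The difference of BC002163 went from 2.43 to 0.56 with Ndufs5, a subunit of respiratory complex I, and that of Hist1h2al, a histone pseudogene, from −4.09 to −0.33. The summed groups overlapped for Eno1b and Hist1h2al and did not overlap for BC002163.

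Mnd1 and Hist1h2bl kept their difference when copies were summed. Mnd1, which acts in meiotic and other recombination, was 14.2 and 13.7 TPM in Scribble null, 47.9 and 53.4 TPM in Yap1 Taz null and 53.4 and 31.9 TPM in wild-type libraries. Its log2 difference was −1.78 alone, with an adjusted p of 0.034, and −1.79 with Mnd1-ps. Hist1h2bl, a replication-dependent histone H2B gene, was 592 and 748 TPM against 1384 and 1229 TPM, with an adjusted p of 0.0404. Its log2 difference was −0.97 alone and −0.88 with its 12 copies. Mnd1 was called under 8 of 19 alternatives and Hist1h2bl under 5 of 18.

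**Figure D3:**
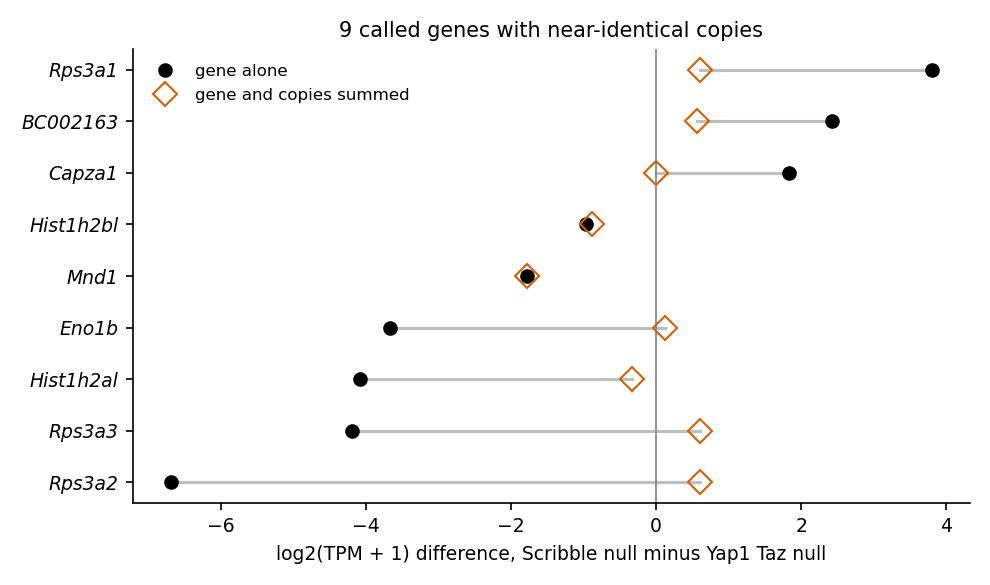
Log2(TPM + 1) difference, Scribble null minus Yap1 Taz null, of the 9 called genes with near-identical copies, for the gene alone (filled circles) and for the summed level of the gene and its copies (open diamonds). The summed level moves close to 0 for Capza1 and Eno1b, to 0.60 for the Rps3a family, and stays in place for Mnd1 and Hist1h2bl.

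Genes of DNA replication and mitosis were lower in Scribble null than in Yap1 Taz null libraries across most of their lists, though no member was called. Of the 52 genes of the G1/S and DNA replication list, 40 had both Yap1 Taz null libraries higher and 2 both Scribble null libraries higher, beside 20% and 19.7% of all compared genes. The list's median log2 difference was −0.51, beside −0.00393 for all genes, and 24 members had an unadjusted p under 0.05, all higher in Yap1 Taz null. Across the alternative settings the median stayed between −0.55 and −0.43. Of the 48 G2/M and mitosis genes 32 had both Yap1 Taz null libraries higher and 3 both Scribble null libraries higher, with a median of −0.43.

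Gins2, a subunit of the replicative helicase, was 52.6 and 58.1 TPM in Scribble null and 105 and 98.7 TPM in Yap1 Taz null libraries. On the log2 scale the difference was −0.87 (SE 0.14) with an adjusted p of 0.0588. The S phase cyclin Ccna2 was 37.5 and 36.8 TPM against 77.5 and 64.4 TPM, and the E2F family repressor E2f8 was 17.4 and 18.2 TPM against 33.7 and 39.3 TPM. Neither passed the test, with adjusted p-values of 0.0861 and 0.107, although their groups did not overlap.

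Mki67, the proliferation antigen Ki-67, was 77.8 and 92.4 TPM in Scribble null and 147 and 139 TPM in Yap1 Taz null libraries, with wild type at 139 and 133 TPM. On the log2 scale Mki67 differed by −0.75 (SE 0.15) with an adjusted p of 0.101. The mitotic kinesin Kif22 was 36.4 and 42.4 TPM against 72.7 and 90.7 TPM, and the spindle checkpoint kinase Ttk 11.9 and 11.0 TPM against 21.6 and 26.7 TPM, with adjusted p-values of 0.129 and 0.177. The 5 genes of the G1/S list that were not lower in Scribble null, chosen after their values were seen, were Ccnd3, Cdk6, Pold1, E2f7 and E2f3, with log2 differences from 0.03 to 0.41.

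The replication-dependent histones, which are made in S phase, had a median of −0.74 over 29 genes. Of these 18 (62.1%, beside 20% of all genes) had both Yap1 Taz null libraries higher and 3 (10.3%, beside 19.7%) both Scribble null libraries higher. Hist1h3b was 14.8 and 13.3 TPM in Scribble null and 51.6 and 31.8 TPM in Yap1 Taz null libraries, with an adjusted p of 0.102. Hist1h1a, a linker histone, was 7.78 and 23.5 TPM against 42.8 and 60.6 TPM, with an adjusted p of 0.167. Hist2h2aa1 stood in the other direction, at 45.3 and 80.2 TPM against 21.8 and 20.4 TPM, with an adjusted p of 0.1, and its reads can be shared with near-identical histone genes. The summed histone level of the Scribble null libraries differed between them, at 1161 and 2178 TPM, against 3284 and 2986 TPM in Yap1 Taz null libraries.

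Beside wild type, the G1/S list had a median of −0.55 in Scribble null and −0.07 in Yap1 Taz null, with 46 and 31 of 52 genes below wild type, and the G2/M list −0.42 and −0.10, with 45 and 27 of 48 below. The corresponding medians of all compared genes were 0.15 and 0.14, and both comparisons share their wild-type libraries. For the MYC and ribosome biogenesis list the median between the groups was −0.16. Of its 40 genes 15 (37.5%, beside 20% of all genes) were higher in both Yap1 Taz null libraries and 4 (10%, beside 19.7%) in both Scribble null libraries. Its named members were Npm1, a nucleolar chaperone, at 1310.2 and 1357 against 1929 and 1965 TPM (adjusted p 0.086), and Myc, a growth regulator, at 256 and 269.9 against 339 and 372 TPM (adjusted p 0.204). Cell cycle inhibitors and quiescence genes had no such tilt, with a median of −0.02 and 7 and 8 of 29 genes higher in both libraries of one or the other group. That list includes Gfi1, which was called, Nr4a2, a nuclear receptor, at 404 and 371 against 493 and 561 TPM (adjusted p 0.233), and Txnip, an inhibitor of thioredoxin, at 349 and 303 against 237 and 227 TPM (adjusted p 0.328).

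**Figure D4:**
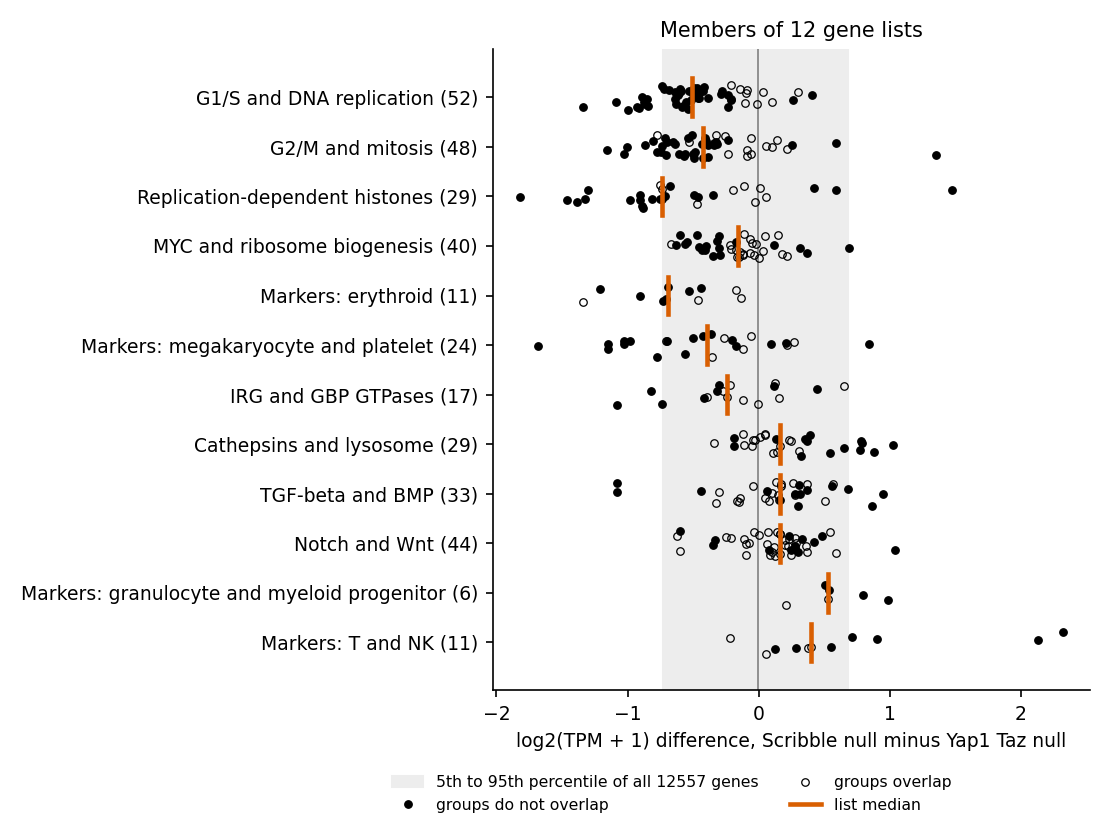
Log2(TPM + 1) difference, Scribble null minus Yap1 Taz null, of each measured member of 12 gene lists chosen for display after their values were seen, with filled points where the groups do not overlap, an orange bar at the list median and a grey band from the 5th to the 95th percentile of all 12557 genes. The G1/S, G2/M, histone, erythroid and megakaryocyte medians lie between −0.74 and −0.39, and the granulocyte and T and NK medians at 0.53 and 0.40.

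Markers of committed blood lineages differed in both directions, again with no member called. All 11 measured erythroid marker genes had a negative difference, and their median was −0.69. Both Yap1 Taz null libraries were higher for 7 of the 11, beside 20% of all compared genes. Car2, a carbonic anhydrase, was 333 and 314 TPM in Scribble null and 481 and 453 TPM in Yap1 Taz null libraries, with an adjusted p of 0.107. Klf1, the erythroid master factor, was 0.792 and 3.33 TPM against 5.28 and 5.602 TPM, with an adjusted p of 0.367. The summed level of the 16 autosomal genes of the list was 380 and 385 TPM in Scribble null, 580 and 562 TPM in Yap1 Taz null and 544 and 526 TPM in wild-type libraries. Car2 made up most of the sum in each of these libraries. The globin Hba-a1 was at or under 0.436 TPM in every library.

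Of 24 megakaryocyte and platelet genes, 14 (58.3%, beside 20% of all genes) had both Yap1 Taz null libraries higher and 3 (12.5%, beside 19.7%) both Scribble null libraries higher. Their median was −0.39. Pf4, a platelet chemokine, was 94.9 and 98.9 TPM in Scribble null, 222 and 211 TPM in Yap1 Taz null and 816 and 958 TPM in wild-type libraries. Both null genotypes were thus below wild type, Scribble null more so, and the log2 difference between them was −1.15 (SE 0.21) with an adjusted p of 0.086. Sdpr, a caveola-associated protein, was 17.0 and 15.6 TPM against 35.0 and 33.4 TPM, and Plek, the platelet protein pleckstrin, 33.5 and 41.1 TPM against 74.96 and 78.6 TPM, with adjusted p-values of 0.0791 and 0.0947. The integrin Itgb3 stood the other way, at 63.3 and 68.5 TPM against 37.7 and 34.9 TPM, with an adjusted p of 0.193. In bulk libraries fewer cells of a type and less RNA per cell cannot be told apart, and the part of these lineages in the cell cycle difference was not tested.

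All 6 measured genes of the granulocyte and myeloid progenitor list had a positive difference, with a median of 0.53. Both Scribble null libraries were higher for 4 of the 6, beside 19.7% of all compared genes. Prtn3, a neutrophil granule protease, was 425 and 262 TPM in Scribble null and 163 and 173 TPM in Yap1 Taz null libraries, with an adjusted p of 0.144. Csf3r, the receptor for granulocyte colony-stimulating factor, was 117 and 115 TPM against 95.3 and 67.1 TPM, with an adjusted p of 0.324. The summed list was 1008 and 869 TPM in Scribble null, 580.4 and 588 TPM in Yap1 Taz null and 502.9 and 552 TPM in wild-type libraries, carried by Gstm1, Prtn3 and Csf3r. The granule genes S100a8, Ly6g, Mmp8, Fcnb, Hp and Cd177 were listed at 0 in every library.

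Of 11 measured T and NK cell genes 7 had both Scribble null libraries higher and none both Yap1 Taz null libraries, beside 19.7% and 20% of all compared genes. Cd8b1, at 2.28 and 1.40 TPM in Scribble null and 0.778 and 0.644 TPM in Yap1 Taz null libraries, passed the filter through Scribble null alone. Its lack of overlap was thus fixed by the filter. The list's median was 0.40, and 0.375 over the 7 genes kept by a minimum of 5 TPM. The median was 0.23 without the second Scribble null library and 0.60 without the second Yap1 Taz null library. The members with the smallest p included 2 lectin-like receptors, Klrb1a at 10.3 and 11.8 TPM in Scribble null and 1.01 and 2.75 TPM in Yap1 Taz null libraries and Klrb1c at 30.9 and 14.95 TPM against 5.35 and 2.22 TPM. Their adjusted p-values were 0.0812 and 0.225, and wild type was between 0.659 and 3.24 TPM for both. The defining genes Trbc1, Trbc2, Cd2, Klrd1, Ncr1 and Gzma were listed at 0 in every library. The summed list was 234 and 257 TPM in Scribble null and 178 and 175 TPM in Yap1 Taz null libraries. The wild-type sum, at 274 and 221 TPM, was near the Scribble null sum. Gene by gene, the median difference from wild type over the 11 measured genes was 0.645 in Scribble null and 0.266 in Yap1 Taz null. Of these genes 2 and 3 were below wild type, and the medians of all compared genes were 0.149 and 0.143.

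The remaining marker lists differed less or had few measured members. Monocyte, macrophage and dendritic genes had a median of 0.19 over 13 genes and summed levels of 388 and 341 against 332 and 299 TPM, with Cd68, a lysosomal glycoprotein, at 46.1 and 33.0 against 17.4 and 20.1 TPM (adjusted p 0.153). Endothelial genes had a median of 0.21 over 15 genes, and Egfl7, a secreted vascular factor also made by stem cells, was 84.8 and 74.2 against 58.8 and 28.8 TPM (adjusted p 0.295). B lineage genes had a median of 0.02 over 10 genes, mast cell, basophil and eosinophil genes −0.18 over 5 genes, and stromal and bone genes 0.26 over 7 genes. Leaving out 1 library moved each of these 5 medians by more than 1.5 times. The mast cell median changed sign, to 0.23, without the second Yap1 Taz null library, and the B lineage median, to −0.16 and −0.02, without the first Yap1 Taz null and without the second Scribble null library.

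The cells carried the surface genes by which mouse blood stem cells are sorted. Kit was 384 and 401 TPM in Scribble null and 403 and 532 TPM in Yap1 Taz null libraries, and Slamf1, the SLAM antigen CD150, was 57.7 and 60.5 TPM against 60.8 and 68.3 TPM. Cd48, which is absent from sorted SLAM stem cells, was between 1.61 and 3.30 TPM in these 4 libraries. Of the 38 surface markers and receptors measured, 15 (39.5%, beside 19.7% of all genes) had both Scribble null libraries higher and 8 (21.1%, beside 20%) both Yap1 Taz null libraries higher. The list had a median of 0.11 and no call. Without the first and without the second Scribble null library the median was 0.22 and 0.02.

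Procr, the endothelial protein C receptor that marks the most primitive stem cells, was 142 and 113 TPM in Scribble null, 61.1 and 70.2 TPM in Yap1 Taz null and 100.02 and 101 TPM in wild-type libraries. Wild type thus lay between the groups, and the log2 difference was 0.94 (SE 0.15) with an adjusted p of 0.0611. The receptor Cd27 was 290 and 323 TPM against 196 and 230.3 TPM (adjusted p 0.18). Of the 47 stem cell transcription factors 13 (27.7%, beside 19.7% of all genes) were higher in both Scribble null libraries and 10 (21.3%, beside 20%) in both Yap1 Taz null libraries. The called ones were Gfi1, Gfi1b and Runx3, and the median was 0.03.

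**Figure D5:**
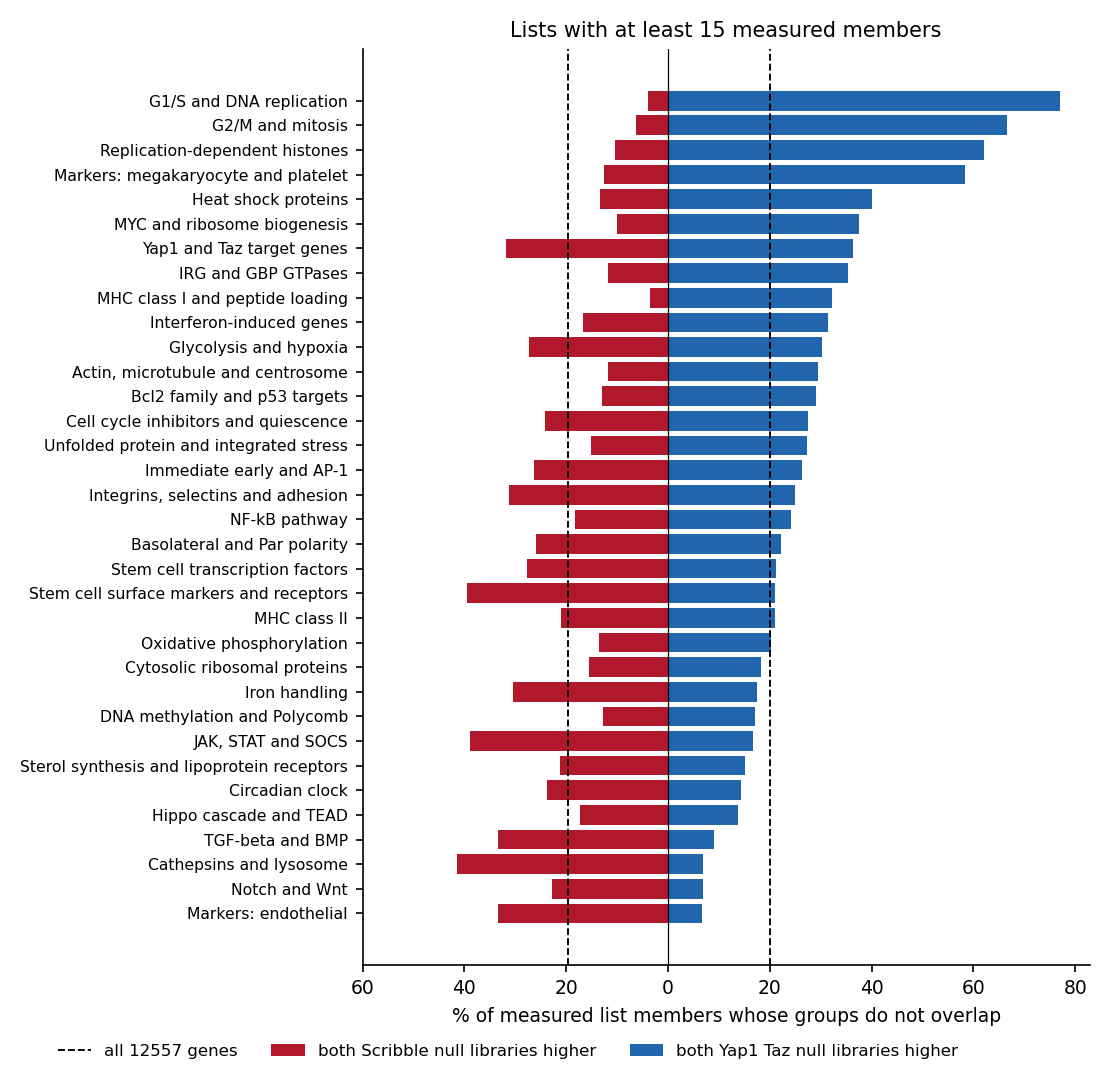
Share of the measured members of the lists shown, each of at least 15 genes, for which both Scribble null libraries are higher (red, to the left) or both Yap1 Taz null libraries are higher (blue, to the right), in percent, with dashed lines at the shares of all 12557 genes, 19.7% and 20%. The G1/S, G2/M, histone and megakaryocyte lists extend furthest to the right, and the cathepsin and stem cell surface lists furthest to the left.

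The pathways that the targeted genes belong to did not separate the groups as lists. The 27 basolateral and Par polarity genes had a median of 0.12, with 7 (25.9%, beside 19.7% of all genes) higher in both Scribble null libraries and 6 (22.2%, beside 20%) in both Yap1 Taz null libraries. That median was −0.05 without the second Scribble null library, and −0.09 in the whole-series table. The named members were Mpp5, a Crumbs complex scaffold, at 15.3 and 22.999 against 27.2 and 32.8 TPM (adjusted p 0.456), Mark2, a polarity kinase, at 110 and 137 against 160.2 and 208 TPM (adjusted p 0.487), and Vangl2, a planar polarity protein, at 24.4 and 19.2 against 14.2 and 17.2 TPM (adjusted p 0.596). The 29 Hippo cascade and TEAD genes had a median of −0.01, with 5 (17.2%) and 4 (13.8%) higher in both libraries of Scribble null and of Yap1 Taz null. Ptpn14, a phosphatase that binds YAP, was 12.0 and 14.7 TPM in Scribble null and 6.99 and 8.57 TPM in Yap1 Taz null libraries, with an adjusted p of 0.362.

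Of 34 genes known as YAP and TAZ targets in other tissues, 22 were measured, with a median of −0.12. Of these 7 (31.8%, beside 19.7% of all genes) were higher in both Scribble null libraries and 8 (36.4%, beside 20%) in both Yap1 Taz null libraries. Without the second Yap1 Taz null library the median was 0.01, and with a minimum of 5 TPM it was 0.06. The most used reporters of the pathway, Ctgf and Ankrd1, were at or near 0 in the 4 libraries, at most 0.028 TPM. Cyr61, another, was 24.96 and 21.3 TPM in Scribble null and 31.9 and 28.1 TPM in Yap1 Taz null libraries, with an unadjusted p of 0.17. The cyclin Ccnd1 was 17.5 and 15.9 TPM against 27.4 and 35.4 TPM (adjusted p 0.19), the stress gene Gadd45b 11.9 and 27.3 TPM against 42.0 and 52.9 TPM (adjusted p 0.207), and the matrix protein Thbs1 0.586 and 0.244 TPM against 2.64 and 4.60 TPM (adjusted p 0.129). These 3 targets, the ones of smallest p in the list, were higher in Yap1 Taz null libraries without passing the test. The list itself was split, with 10 genes higher in Scribble null and 12 higher in Yap1 Taz null. An unadjusted limma p under 0.05 was reached by 3 and 4 of them.

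Among cytoskeletal genes 1 was called, Capza1, whose difference did not hold when summed with its copy. Of the 34 actin, microtubule and centrosome genes 10 (29.4%, beside 20% of all genes) were higher in both Yap1 Taz null libraries and 4 (11.8%, beside 19.7%) in both Scribble null libraries. The median was −0.15, or −0.06 without the first Scribble null and −0.08 without the first Yap1 Taz null library. Pfn1, an actin monomer binding protein, was 747 and 840 TPM against 1047 and 1201 TPM (adjusted p 0.169), and Tuba1b, an alpha tubulin, 814 and 921 TPM against 1396 and 1156 TPM (adjusted p 0.17).

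Over the 54 interferon-induced genes the median was −0.09. Of these genes 17 (31.5%, beside 20% of all genes) were higher in both Yap1 Taz null libraries and 9 (16.7%, beside 19.7%) in both Scribble null libraries. Ifitm1 was called within the list, in the direction opposite to its median. Xaf1 was 48.3 and 63.8 TPM in Scribble null and 85.5 and 105 TPM in Yap1 Taz null libraries (adjusted p 0.22). The IRG and GBP GTPases, which attack vacuoles of intracellular pathogens, had a median of −0.25 over 17 genes. Of these 6 (35.3%) were higher in both Yap1 Taz null and 2 (11.8%) in both Scribble null libraries. The median was −0.13 without the first Scribble null and also without the second Yap1 Taz null library. Gbp6 was 6.78 and 8.90 TPM in Scribble null, 16.4 and 18.8 TPM in Yap1 Taz null and 51.0 and 54.8 TPM in wild-type libraries. Gbp6 had a log2 difference of −1.08 (SE 0.22) at an adjusted p of 0.11, and Ifi47, at 147 and 182 against 261 and 285 TPM, had an adjusted p of 0.086.

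Summed over the 18 genes of the IRG and GBP list the levels were 613 and 670 TPM in Scribble null, 802 and 851 TPM in Yap1 Taz null and 1706 and 1705 TPM in wild-type libraries. The MHC class II list, with H2-Aa called, had 4 of 19 genes (21.1%, beside 19.7% and 20% of all genes) without overlap in each direction. Summed over 20 genes it was 832 and 856 TPM in Scribble null, 1022 and 1179 TPM in Yap1 Taz null and 3166 and 3562 TPM in wild-type libraries. MHC class I and peptide loading genes had a median of −0.11 over 28 genes, 9 (32.1%) higher in both Yap1 Taz null libraries and 1 (3.57%) in both Scribble null libraries. Their sum was 10958 and 11250 TPM in Scribble null, 12466 and 12815 TPM in Yap1 Taz null and 17398 and 17162 TPM in wild-type libraries. In all 3 lists Scribble null had the lower summed level of the compared genotypes and wild type the highest.

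More genes were higher in both Scribble null than in both Yap1 Taz null libraries in the cathepsin, TGF-beta and BMP, and JAK, STAT and SOCS lists, again with no call. Of 29 cathepsin and lysosome genes 12 (41.4%, beside 19.7% of all genes) were higher in both Scribble null libraries and 2 in both Yap1 Taz null libraries, with a median of 0.16, or 0.29 without the first Scribble null library. Psap, the precursor of saposins, was 170 and 140 TPM against 95.3 and 101 TPM (adjusted p 0.138). Of 33 TGF-beta and BMP genes 11 (33.3%) were higher in both Scribble null and 3 in both Yap1 Taz null libraries, with a median of 0.17, or 0.07 and 0.31 without the first and without the second Yap1 Taz null library. Tgfbi, an extracellular matrix protein induced by TGF-beta, was 18.7 and 25.4 TPM against 9.98 and 11.7 TPM (adjusted p 0.17). The receptor Bmpr1a stood the other way, at 2.88 and 2.16 TPM against 6.40 and 6.43 TPM (adjusted p 0.228), with wild type at 0.448 and 0.522 TPM.

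Of 44 Notch and Wnt genes 10 (22.7%, near the 19.7% of all genes) were higher in both Scribble null and 3 (6.82%, beside 20%) in both Yap1 Taz null libraries, with a median of 0.16. That median was 0.11 and 0.06 without the first and without the second Scribble null library, and 0.07 without the first Yap1 Taz null library. The Notch target Hey1 was 98.8 and 67.8 TPM in Scribble null and 38.3 and 40.2 TPM in Yap1 Taz null libraries, a log2 difference of 1.04 (SE 0.20) at an adjusted p of 0.0871, and Hes1 was 637 and 562 TPM against 474 and 420 TPM (adjusted p 0.25). Of 36 JAK, STAT and SOCS genes 14 (38.9%) were higher in both Scribble null and 6 in both Yap1 Taz null libraries, with a median of 0.10, or 0.02 without the second Scribble null library. Socs2, a feedback inhibitor of cytokine signalling, was 31.5 and 35.2 TPM against 17.1 and 19.6 TPM (adjusted p 0.167).

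The immediate early and AP-1 list had 10 of 38 genes (26.3%, beside 19.7% and 20% of all genes) higher in both libraries of each group. Its median was 0.08, with members on either side. Fosb was 591 and 645 TPM in Scribble null and 342 and 407 TPM in Yap1 Taz null libraries (adjusted p 0.0653), and Klf6 158 and 164 TPM against 97.3 and 99.9 TPM (adjusted p 0.071). Nr4a3, an immediate early nuclear receptor, stood the other way at 33.6 and 53.4 TPM against 88.1 and 106 TPM (adjusted p 0.124). None of these 3 overlapped between the groups.

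The metabolic and stress lists had medians between −0.08 and 0.05. They were −0.08 for 74 oxidative phosphorylation genes, 0.05 for 33 glycolysis and hypoxia genes, −0.02 for 33 sterol genes, −0.06 for 23 iron handling genes, −0.08 for 33 unfolded protein and integrated stress genes, and −0.08 for 30 heat shock genes. Of the heat shock genes 12 (40%, beside 20% of all genes) were higher in both Yap1 Taz null libraries and 4 (13.3%, beside 19.7%) in both Scribble null libraries. Hk2, the hexokinase that commits glucose to glycolysis, was 135 and 133 TPM in Scribble null and 329 and 226 TPM in Yap1 Taz null libraries, a log2 difference of −1.02 (SE 0.18) at an adjusted p of 0.0811. Asns, asparagine synthetase, was 18.2 and 17.1 TPM against 40.1 and 42.2 TPM (adjusted p 0.184), and Aco1, the iron-sensing cytosolic aconitase, 13.0 and 12.2 TPM against 5.20 and 5.604 TPM (adjusted p 0.185).

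The other lists were likewise centred near the median of all genes. They were −0.01 for 77 cytosolic ribosomal protein genes (Rps3a1 being the 1 called), 0.05 for 32 adhesion genes, −0.03 for 33 NF-kB genes, 0.02 for 31 Bcl2 family and p53 genes, 0.02 for 47 DNA methylation and Polycomb genes and 0.05 for 21 circadian clock genes. Itgb4, an integrin of epithelial adhesion, was 0.637 and 1.22 TPM against 3.40 and 7.67 TPM (adjusted p 0.17). Its groups did not overlap, and it did not pass the test.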

How the data were processed

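RNA of sorted bone marrow stem cells went through Ovation v2 amplification and Nextera XT library construction, per the labels' protocols. The authors deposited 1 TPM table per library, per the file headers, each summing to 1000000 over 33641 symbols. TopHat, with no version, and mm10 are named in the submitters' processing notes. The quantifier, its annotation and its treatment of strand and of reads shared by near-identical copies were not given in the sources used here. Because TPM has a fixed sum, 1 abundant gene can depress the rest.

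Groups and replicate numbers come from the labels. Log2(TPM + 1) values were fitted with limma 3.58.1 in R 4.3.3 (moderated variances with a mean-variance trend, 1 mean per group over all 8 libraries, 4 residual and 4.042 prior degrees of freedom). The contrast was Scribble null minus Yap1 Taz null, two-sided, for the 15151 symbols reaching 1 TPM in 2 or more of the 4 libraries. Benjamini-Hochberg adjustment ran over all 15151, and genes under 0.05 were called. The same fit gave Scribble null and Yap1 Taz null each minus wild type, adjusted in the same way. Fold changes on this scale understate those of low genes. Of the tested symbols 1912 were -ps or Gm symbols, 429 X-linked, 4 Y-linked, 13 mitochondrial, 219 without an annotation match and 17 on other sequences, and were set aside. Positions are from GENCODE M21 (GRCm38, which is mm10) for 12398 members and through RefSeq synonyms for 159. Near-identical copies were found with BLAST 2.17.0, at 95% identity over 80% of the length of each gene's longest transcript. Only GENCODE M21 transcripts of symbols with a TPM value were counted, so unannotated and shorter copies would be missed. The authors also deposited a whole-series table, which names no unit in its header, and its non-negative values were treated as a signal and used only as an alternative. It was fitted as log2(value + 1), and 25019 of its identifiers matched a symbol. The fit was tested on simulated data.

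Named genes are Scrib, Yap1 and Wwtr1, then up to 12 called protein-coding genes per direction without overlap, then up to 3 of smallest p per list. Some of the list genes were left out, and not only from the end of this order. Called genes outside this rule are said to be so. Other genes outside it are not all marked where they appear. Among these are the Y-linked genes, the pathway reporters Ctgf, Ankrd1 and Cyr61, and the surface genes Slamf1 and Cd48. The globin Hba-a1 and the lineage markers without signal in any library are further examples. The members, lists and rule were chosen with earlier results of these data known. Alternatives covered pseudocounts, filters, scaling, the libraries fitted, the replicate block, the adjustment, the variance model, the deposited table and leaving out each library. A few genes and 1 list are not reported here.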

Additional observations from a re-analysis of the deposited data

How the results depend on the processing

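The count of called genes, 31 (11 higher in Scribble null, 20 higher in Yap1 Taz null), was within 1.5 times under other pseudocounts, a stricter filter, other scalings and the whole-series table. It was 14 (4 and 10) with no filter, 5 (1 and 4) with the 4 compared libraries alone and 17 (6 and 11) with p-values adjusted over the autosomal genes alone. Without the mean-variance trend it was 21, with 12 higher in Yap1 Taz null. Leaving out 1 library at a time gave 10 to 45 genes, 2 to 17 higher in Scribble null and 8 to 28 higher in Yap1 Taz null, the lone library being assumed to vary like the other groups. Leaving out genes with a near-identical copy, chosen after seeing the data, gave 22 (8 and 14). With the replicate number as a block 20 genes were called, 5 higher in Scribble null. Deviations of same-numbered libraries correlated at −0.037 to 0.009, so the numbers were not taken to pair the samples.

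For the called genes 349 of 585 values kept direction and call, 235 lost the call, and Chd9 reversed in the whole-series table (0.0698). Yap1 changed sign with a pseudocount of 0.1 (0.00576), and leaving out 1 library at a time gave it −0.65 to 0.63, above 0 without Scribble null replicate 2 (0.48) and without Yap1 Taz null replicate 2 (0.63). The cause was not tested. For the 117 other named genes 2186 of 2205 values kept direction and call. The medians of the G1/S, G2/M, histone, erythroid, megakaryocyte, granulocyte, T and NK, cathepsin, TGF-beta and Notch lists kept their sign under all 19 alternatives. TPM keeps no depth, so no counting error can be given for low genes.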
